A study of Mus musculus with 68 samples.

Results

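The genes of the translation initiation factors (eIFs) were followed in cumulus cells (CCs), in embryos made from them by somatic cell nuclear transfer (SCNT) and in fertilized blastocysts injected with morpholino oligonucleotides (MOs). They are the genes whose symbol begins with Eif and a digit from 1 to 6. The Y-linked Eif2s3y was left out. By this rule 54 of the 24421 reference genes listed in every library were members. A symbol names the gene and not its use, and so the eIF2 alpha kinases and the eIF4E-binding repressors are among them. Eif3j1 and Eif3j2 are overlapping listings whose values differed by a median of 0.164% over the 68 libraries, and they are one signal listed 2 times. The rule uses names only, but it was set with earlier results of these data known.

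Initiation brings a ribosome to the start codon of an mRNA. eIF4E binds the cap, eIF4G is the scaffold that joins it to the helicase eIF4A, and 4E-BPs and 4E-T compete with eIF4G for eIF4E. eIF3, eIF1, eIF1A and the ternary complex of eIF2, GTP and initiator tRNA load the small subunit for scanning, eIF2B recharges eIF2, and eIF5 and eIF5B end the process with subunit joining. The oocyte stores mRNAs with short poly(A) tails and silenced caps, and oocyte forms of eIF4E are known from several animals. In the mouse the main wave of genome activation comes at the 2-cell stage, and the stored maternal RNA is cleared around the same time. EIF1A-like genes are among the transcripts of that wave, but they have other symbols and are not analysed here.

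The SCNT embryos were made with oocytes of BDF1 mice and with cumulus cells as nuclear donors: the metaphase II oocytes were enucleated, each received the nucleus of a cumulus cell by injection, and all were activated by strontium chloride in the presence of cytochalasin B, and these treatments are shared by all 9 SCNT groups. There were 6 libraries at each of 6 h post activation (6 hpa), 14 hpa, early 2-cell (E2C), late 2-cell (L2C), 8C and morula, 6 each of the blastocyst trophectoderm (TE) and inner cell mass (ICM), 5 at 4C, and 3 libraries of CCs. By the study's methods the females that gave oocytes, CCs and zygotes were superovulated with hormones (PMSG, then hCG). The CCs were freed from the oocytes with hyaluronidase. The fertilized embryos, which came from C57BL/6j parents by the study's methods, were injected as zygotes, and ICM and TE were taken with 2 libraries each for Max MO, Mcrs1 MO and control. MAX is the partner that MYC proteins need to bind DNA at the E-box CACGTG, and MCRS1 is a nuclear protein of chromatin complexes. The 4 control libraries are labelled control and untreated, and were taken as the random control MO that the protocol names. By the study's methods the control MO was given at a higher concentration than the other MOs. A library pools about 10 blastomeres, the labels do not tie replicates to separate embryos, and p-values then measure only the spread between these libraries, which may be technical. Fewer cells of a type and less RNA per cell cannot be told apart.

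Values are TPM on the scale of the deposited tables, which give no read counts, and so the depth behind each gene is unknown. Between 1.00 and 5.17 gigabases were aligned per library. Smart-seq2 copies polyadenylated RNA, and an amount of RNA cannot be told apart from the length of its tail. The CC libraries carried cumulus markers and the 6 hpa libraries oocyte markers, while the ICM libraries also carried TE markers, as given below. The 7 oocyte markers summed to 2128 to 4201 TPM at 6 hpa and to at most 2.25 TPM in CCs, where Zp1, Zp2, Zp3 and Mos were at 0. The 7 cumulus markers summed to 1373 to 2099.8 TPM in CCs and to 7.36 to 14.5 TPM at 6 hpa. At several stages replicates 1 to 3 and replicates 4 to 6 formed separate sets. At 14 hpa the ranges of the 2 sets did not overlap for 38 of 53 members (71.7%), against 52.5% of all genes. At E2C this held for 60.4% of members and 41.0% of genes, and at 4C for 66.0% and 39.0%. In the SCNT TE it held for 60.4% and 33.0% and at morula for 50.9% and 24.8%. The share of members was lowest at L2C, at 22.6%, where that of genes was 27.8%. The labels do not say what the sets share, and calls of named members lost within a set are given with each comparison. A change is the difference of mean log2(TPM + 1), which understates the change of genes with low values. A gene was called with a limma Benjamini-Hochberg adjusted p under 0.05 and at least a 2-fold change.

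Most members were detected at every stage, and more had their highest SCNT mean at 8C or morula than at all other stages. In CCs 51 members reached 1 TPM in every library, against 44 at 6 hpa, 50 at L2C, 46 at 8C and 47 at morula. The highest mean of the 9 SCNT groups was at 8C for 13 members and at morula for 21. It was at 6 hpa for 6 (Eif2ak1, Eif2ak4, Eif2b1, Eif4e3, Eif4g3 and Eif5b) and at 14 hpa for 3 (Eif1b, Eif4e1b and Eif4enif1). It was at L2C for 5 (Eif2a, Eif2ak2, Eif2ak3, Eif4ebp2 and Eif5a2), in the ICM for 3, in the TE for 3, and at E2C and 4C for 0. Eif3j1 and Eif3j2, 1 signal, both count at 8C. The same counts were not made over all genes. Annotated genes summed to 68.6 to 76.3% of the fixed TPM total at 6 hpa, 30.4 to 61.8% at L2C and 44.0 to 75.65% at 4C. They summed to 76.0 to 84.4% at 8C, 87.1 to 89.7% at morula and 81.5 to 90.9% in the SCNT TE. The part of this scale in the peak stages was not tested.

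The make-up of the cap-binding forms changed from stage to stage. Eif4e3 was 71.4% of the 4 summed forms at 6 hpa, Eif4e was the largest in every later SCNT group, and Eif4e1b was at most 11.6%, at 14 hpa. Eif4e1b (chr13:54783998-54788458, mm10, plus strand) is known as the oocyte form of eIF4E. It was listed at 0, 0.0181 and 0 TPM in the 3 CC libraries. Its median and range were 28.0 (20.8 to 40.6) TPM at 6 hpa, 119 (57.0 to 214) at 14 hpa and 101 (35.1 to 172) at E2C. They were 20.1 (1.99 to 36.6) TPM at L2C and 1.08 (0.0387 to 1.59) at 4C, and all 8C libraries were at 0. It then averaged 0.00975 TPM at morula, 0.0290 in the SCNT ICM and 0.0178 in the SCNT TE. All 14 hpa libraries were above all 6 hpa libraries, the highest level came before the 2-cell stage, and no fold is given against 8C or CCs, which are listed at or near 0. The log2 change was 1.89 ± 0.38 (SE, limma adjusted p = 2.12e-04) from 6 to 14 hpa, -2.48 ± 0.38 (SE, limma adjusted p = 5.61e-07) from E2C to L2C and -3.07 ± 0.40 (SE, limma adjusted p = 7.89e-09) from L2C to 4C.

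Eif4e3 (chr6:99625137-99666771, mm10, minus strand), a cap-binding form with an atypical pocket, was at 5.94, 9.75 and 8.16 TPM in the 3 CC libraries. Its median and range were 746 (405 to 794) TPM at 6 hpa, 347 (121 to 449) at 14 hpa and 352 (221 to 487) at E2C. They were 171 (25.1 to 259) TPM at L2C, 11.3 (6.38 to 17.5) at 4C and 0.584 (0 to 1.57) at 8C and then 0.356 (0.0245 to 0.595) TPM at morula, 0.236 (0.103 to 5.47) in the SCNT ICM and 0.104 (0 to 1.63) in the SCNT TE. Its share of the 4 summed eIF4E forms was 2.63% in CCs and 71.4% at 6 hpa, then 30.3% at 14 hpa, 27.5% at L2C and 1.33% at 4C. The 6 hpa and CC libraries did not overlap, and 8C and 6 hpa did not either. Its log2 change was 6.19 ± 0.52 (SE, limma adjusted p = 2.19e-15) for 6 hpa against CCs and -8.70 ± 0.43 (SE, limma adjusted p = 2.67e-24) for 8C against 6 hpa. From 6 to 14 hpa it was -1.12 ± 0.43 (SE, limma adjusted p = 0.0810), which missed the threshold.

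Eif4e itself had a median of 219 (204 to 221) TPM in CCs, 221 (193 to 249) at 6 hpa, 525 (508 to 676) at 14 hpa and 544 (473 to 709) at E2C. From L2C on the medians were 274 (154 to 431) TPM at L2C, 607 (463 to 1246) at 4C, 1330.4 (1261 to 1703) at 8C, 593 (485 to 1151) at morula, 161 (125 to 248) in the SCNT ICM and 209 (130.2 to 289) in the SCNT TE. It rose from 6 to 14 hpa with a log2 change of 1.36 ± 0.22 (SE, limma adjusted p = 6.92e-06), fell from E2C to L2C by 1.05 on the log2 scale, and fell again from morula to ICM and TE. At 8C it made up 91.3% of the eIF4E forms. Eif4e2, also known as 4EHP, binds caps without recruiting eIF4G and is known as a repressor. It rose with Eif4e from L2C to 4C, by 1.65 against 1.30 on the log2 scale, and rose where Eif4e fell from E2C to L2C. Its median was 79.0 (78.6 to 86.1) TPM in CCs, 5.93 (1.09 to 7.18) at 6 hpa, 11.3 (2.63 to 19.3) at 14 hpa and 12.7 (9.38 to 16.7) at E2C. It was 48.2 (9.47 to 62.5) TPM at L2C, 114 (60.3 to 235) at 4C, 127 (117 to 151) at 8C, 137 (96.4 to 152) at morula, 146 (77.1 to 212) in the SCNT ICM and 172 (152 to 196) in the SCNT TE. The log2 change was -3.89 ± 0.43 (SE, limma adjusted p = 2.40e-11) for 6 hpa against CCs and 1.57 ± 0.36 (SE, limma adjusted p = 4.34e-04) for L2C against E2C, with overlapping libraries in the second. Eif4e2 was 0.524% of the eIF4E forms at 6 hpa and 44.1% in the ICM. In the fertilized blastocysts Eif4e averaged 189 TPM in ICM with control MO, 174 in ICM with Max MO, 230.2 in ICM with Mcrs1 MO, 142 in TE with control MO, 209 in TE with Max MO and 248 in TE with Mcrs1 MO, and Eif4e2 averaged 90.5 TPM in ICM with control MO, 201 in ICM with Max MO, 167 in ICM with Mcrs1 MO, 102 in TE with control MO, 114 in TE with Max MO and 147 in TE with Mcrs1 MO. Eif4e1b stayed under 1 TPM in all 12 of these libraries, and Eif4e3 averaged 0.302 TPM in ICM with control MO, 1.72 in ICM with Max MO, 1.51 in ICM with Mcrs1 MO, 0.0416 in TE with control MO, 1.39 in TE with Max MO and 0.830 in TE with Mcrs1 MO.

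**Figure D1:**
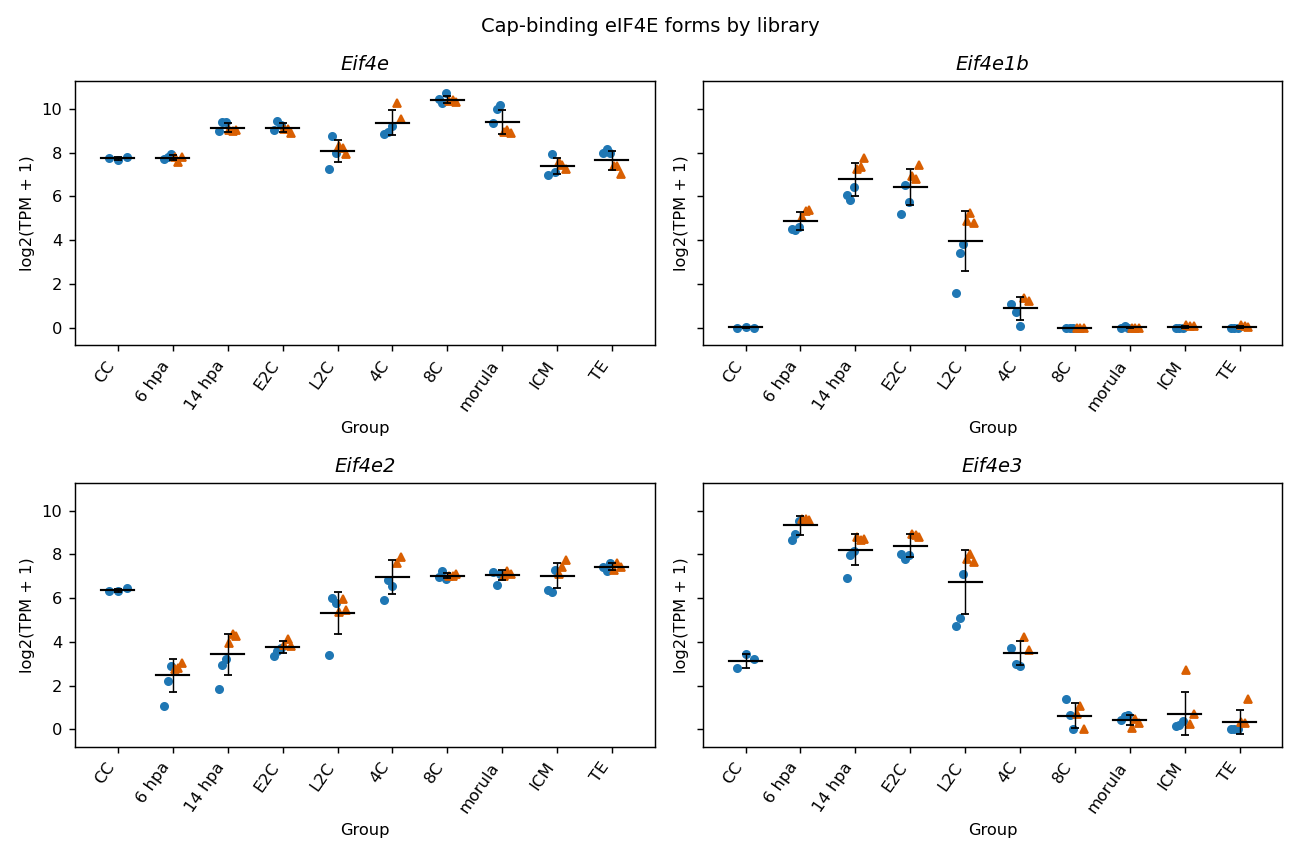
log2(TPM + 1) of the 4 eIF4E forms (vertical axis) in CCs and SCNT groups (horizontal axis). Blue circles are replicates 1 to 3, orange triangles replicates 4 to 6, the bar is the mean and the error bar the SD. Eif4e3 and Eif4e1b are high from 6 hpa to L2C and at or near 0 from 8C on, and Eif4e peaks at 8C.

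Of the proteins that hold eIF4E away from eIF4G, 4E-T was an early transcript and 4E-BP1 a late one. Eif4enif1 encodes 4E-T, which carries eIF4E into the nucleus and partners with it in silenced RNPs. It averaged 7.18 ± 3.82 TPM in CCs, 38.6 ± 3.45 at 6 hpa, 53.2 ± 27.7 at 14 hpa, 39.5 ± 12.1 at E2C and 20.1 ± 11.9 at L2C, and 7.64 ± 2.50 TPM at 4C, 3.85 ± 1.2 at 8C, 5.24 ± 2.61 at morula, 7.68 ± 5.52 in the SCNT ICM and 8.68 ± 5.18 in the SCNT TE (mean ± SD, here and for the values that follow). Its log2 change was 2.37 ± 0.51 (SE, limma adjusted p = 7.06e-05) for 6 hpa against CCs and -3.06 ± 0.42 (SE, limma adjusted p = 7.98e-09) for 8C against 6 hpa. Eif4ebp1, a repressor that mTOR switches off, had a median of 679.6 (612 to 791) TPM in CCs, 9.43 (7.46 to 18.3) at 6 hpa, 6.50 (0.757 to 12.8) at 14 hpa and 23.2 (11.2 to 46.2) at E2C. It was 186 (122 to 292) TPM at L2C, 273 (187 to 362) at 4C, 292 (179 to 362) at 8C, 958 (663 to 1312) at morula, 449 (243 to 685) in the SCNT ICM and 409 (267 to 562) in the SCNT TE. CCs and 6 hpa did not overlap, nor did E2C and L2C. The log2 changes were -5.96 ± 0.44 (SE, limma adjusted p = 1.70e-17), 3.07 ± 0.37 (SE, limma adjusted p = 2.20e-09) and, from 8C to morula, 1.75 ± 0.37 (SE, limma adjusted p = 5.86e-04). The other 4E-BPs were low. Eif4ebp2 averaged 1.21 TPM in CCs, 0.577 at 6 hpa, 0.795 at 14 hpa, 0.956 at E2C, 2.38 at L2C, 2.12 at 4C, 1.42 at 8C, 1.17 at morula, 0.860 in the SCNT ICM and 0.0478 in the SCNT TE. Eif4ebp3 averaged 9.34 TPM in CCs, 0.322 at 6 hpa, 1.29 at 14 hpa, 1.38 at E2C, 1.30 at L2C, 0.313 at 4C, 0.773 at 8C, 1.11 at morula, 5.01 in the SCNT ICM and 4.56 in the SCNT TE. In the fertilized blastocysts Eif4ebp1 averaged 512 TPM in ICM with control MO, 815 in ICM with Max MO, 487 in ICM with Mcrs1 MO, 302 in TE with control MO, 417 in TE with Max MO and 352 in TE with Mcrs1 MO, Eif4ebp2 2.84 TPM in ICM with control MO, 0.553 in ICM with Max MO, 2.02 in ICM with Mcrs1 MO, 4.28 in TE with control MO, 1.25 in TE with Max MO and 0.892 in TE with Mcrs1 MO, and Eif4ebp3 6.07 TPM in ICM with control MO, 3.58 in ICM with Max MO, 1.67 in ICM with Mcrs1 MO, 3.52 in TE with control MO, 2.07 in TE with Max MO and 3.26 in TE with Mcrs1 MO.

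The 14 listed eIF3 genes were low in sum up to E2C and higher from 4C on. Their sum, with Eif3j2 left out, was 2230.2 TPM in CCs, 693 at 6 hpa, 542 at 14 hpa, 540.3 at E2C, 919.7 at L2C, 2587 at 4C, 4759.5 at 8C, 5195 at morula, 3027 in the ICM and 3222 in the TE. Although the subunits work in one complex, their RNAs were far apart at 6 hpa, from 1.51 TPM for Eif3f to 346 for Eif3i. At 8C they ran from 59.1 TPM for Eif3b to 974 for Eif3g. Eif3g, a subunit that helps scanning, was at 423, 395 and 346 TPM in CCs, and its median was 5.84 (2.59 to 11.3) TPM at 6 hpa, 15.3 (7.82 to 25.1) at 14 hpa and 13.4 (9.65 to 18.7) at E2C. It was 65.7 (42.6 to 85.6) TPM at L2C, 228 (203 to 681) at 4C and 1039.5 (784 to 1102) at 8C. All 8C libraries were above all 6 hpa libraries, and the log2 change was 7.10 ± 0.30 (SE, limma adjusted p = 6.59e-27). With Eif3j1 and Eif3j2 counted once, 12 of 13 subunits rose from 6 hpa to 8C, where 36.5% of all genes tested rose, and the other, Eif3i, was at 0.24 ± 0.28 (SE, limma adjusted p = 0.457). Eif3m moved both ways within the first cell cycles: 17.3 TPM at 6 hpa, 51.2 at 14 hpa, 12.5 at E2C, 93.6 at L2C and 622 at 8C. It was called in each step from 6 hpa to 4C.

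eIF1 and eIF1A keep the scanning ribosome open until the start codon, and both exist in more than one form. Eif1 averaged 246 ± 47.7 TPM in CCs, 212 ± 60.4 at 6 hpa, 254 ± 95.9 at 14 hpa, 454 ± 102 at E2C and 410.1 ± 213 at L2C. It averaged 626 ± 93.7 TPM at 4C, 818 ± 103 at 8C, 649.5 ± 126 at morula, 325 ± 119 in the SCNT ICM and 413 ± 66.5 in the SCNT TE. Its highest group was 8C. The second eIF1 gene, Eif1b, was highest at 14 hpa instead. Eif1b averaged 62.5 ± 13.6 TPM in CCs, 125 ± 29.6 at 6 hpa, 403 ± 191 at 14 hpa, 238 ± 139 at E2C and 55.3 ± 33.2 at L2C. It averaged 77.1 ± 34.0 TPM at 4C, 93.4 ± 27.1 at 8C, 83.6 ± 16.1 at morula, 44.6 ± 17.4 in the SCNT ICM and 57.8 ± 14.3 in the SCNT TE. The share of Eif1b in the 2 eIF1 genes was 37.4% at 6 hpa, 60.2% at 14 hpa and 12.7% at L2C, and its log2 change was 1.57 ± 0.37 (SE, limma adjusted p = 0.00205) and then -2.10 ± 0.37 (SE, limma adjusted p = 9.42e-06), with overlapping libraries at L2C against E2C. Of the eIF1A genes, the X-linked Eif1ax was nearly all of the sum at 6 and 14 hpa and was still 59.1% of it at 8C. Eif1ax averaged 364 ± 16.8 TPM in CCs, 43.5 ± 4.21 at 6 hpa, 194 ± 73.9 at 14 hpa, 95.7 ± 13.2 at E2C and 109 ± 21.0 at L2C. It averaged 197 ± 56.8 TPM at 4C, 349 ± 61.2 at 8C, 330.1 ± 68.6 at morula, 230.0 ± 82.8 in the SCNT ICM and 236 ± 29.9 in the SCNT TE. Eif1ax was highest in CCs and 8C and lowest at 6 hpa. Eif1a was at 100.3, 119 and 97.5 TPM in CCs. Its median was 1.53 (0.174 to 2.42) TPM at 6 hpa, 2.05 (0 to 2.97) at 14 hpa, 9.02 (2.83 to 16.5) at E2C and 38.1 (17.5 to 88.6) at L2C. It was 155 (133 to 197) TPM at 4C, 241 (200.5 to 289.7) at 8C, 165 (133 to 257) at morula, 226 (134 to 267) in the SCNT ICM and 257 (188 to 426) in the SCNT TE. Eif1a was 0.933% of the 2 genes at 14 hpa and 45.6% at 4C, and its log2 change for 8C against 6 hpa was 6.68 ± 0.34 (SE, limma adjusted p = 1.32e-23). At E2C it was at 12.9 to 16.5 TPM in replicates 1 to 3 and 2.83 to 5.18 TPM in replicates 4 to 6. In the fertilized blastocysts, in ICM with control, Max and Mcrs1 MO and then in TE in the same order, Eif1 averaged 525, 326, 539, 564, 440.5 and 361 TPM, Eif1b 37.5, 76.4, 61.8, 46.4, 44.1 and 53.8, Eif1ax 167, 156, 115, 104, 159.6 and 106 and Eif1a 330.4, 149, 326, 340.0, 366 and 349.

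eIF2 carries the initiator tRNA, and its subunits differed in level at every stage. Eif2s2, the beta subunit, averaged 264 ± 52.7 TPM in CCs, 514 ± 28.5 at 6 hpa, 498 ± 57.7 at 14 hpa, 222 ± 45.5 at E2C and 210.3 ± 66.8 at L2C. It averaged 827 ± 439.6 TPM at 4C, 2248 ± 272 at 8C, 1851 ± 188 at morula, 2607 ± 656 in the SCNT ICM and 2019 ± 703 in the SCNT TE. It was lowest at the 2-cell stage and high from 8C on. Eif2s1, the alpha subunit that the stress kinases modify, averaged 221 ± 20.2 TPM in CCs, 61.3 ± 10.7 at 6 hpa, 91.3 ± 28.9 at 14 hpa, 61.0 ± 11.8 at E2C and 164 ± 49.4 at L2C. It averaged 337 ± 132 TPM at 4C, 523 ± 46.4 at 8C, 513 ± 66.9 at morula, 383 ± 55.1 in the SCNT ICM and 401 ± 68 in the SCNT TE. From E2C to L2C it rose by 1.36 ± 0.23 (SE, limma adjusted p = 2.83e-06) log2 units. Eif2s3x, the X-linked gamma subunit, averaged 28.2 ± 4.76 TPM in CCs, 4.21 ± 1.06 at 6 hpa, 10.1 ± 1.84 at 14 hpa, 11.7 ± 3.25 at E2C and 28.0 ± 11.2 at L2C. It averaged 42.5 ± 11.4 TPM at 4C, 69.1 ± 9.95 at 8C, 80.9 ± 43.1 at morula, 60.0 ± 17.9 in the SCNT ICM and 66.6 ± 6.42 in the SCNT TE. The log2 change from 6 hpa to 8C was 3.09 for Eif2s1, 2.12 for Eif2s2 and 3.76 for Eif2s3x, and all passed the threshold. eIF2B, the exchange factor, was made up almost wholly of the transcript of its regulatory alpha subunit at 6 hpa. Eif2b1 averaged 1302 of the 1379.9 TPM of the 5 subunit genes there, and 96.9 of 212 TPM in CCs. Its median was 98.8 (81.1 to 111) TPM in CCs, 1421 (944 to 1548) at 6 hpa, 557 (163 to 772) at 14 hpa and 568 (332 to 815) at E2C. The 6 hpa libraries were all above those of CCs. The median was 186 (73.2 to 333) TPM at L2C, 213 (144 to 482) at 4C, 575 (426 to 672) at 8C, 509 (472 to 560.0) at morula, 230.5 (80.6 to 267) in the SCNT ICM and 184 (125 to 292) in the SCNT TE. Eif2b1 was 3.72 ± 0.38 (SE, limma adjusted p = 1.96e-12) log2 units higher at 6 hpa than in CCs. The catalytic subunit Eif2b5 averaged 1.14 TPM at 6 hpa and 70.8 at 8C, with a log2 change of 5.04 ± 0.37 (SE, limma adjusted p = 9.70e-18). Among the kinases that shut eIF2 down, Eif2ak1 and Eif2ak4, which sense haem and amino acid supply, were highest at 6 hpa (34.6 and 5.76 TPM), and Eif2ak3, the kinase of the endoplasmic reticulum, at L2C (10.9 TPM). Eif2ak2, which senses double-stranded RNA, averaged under 1 TPM over the SCNT libraries and was not tested in that fit. Its highest stage mean was 1.93 TPM, at L2C.

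Of the scaffolds, Eif4g1 averaged 4.24 ± 1.54 TPM in CCs, 11.4 ± 4.29 at 6 hpa, 6.02 ± 2.97 at 14 hpa, 7.82 ± 1.99 at E2C and 15.7 ± 8.59 at L2C. It averaged 19.7 ± 7.31 TPM at 4C, 13.6 ± 4.12 at 8C, 40.4 ± 45.8 at morula, 29.7 ± 29.0 in the SCNT ICM and 25.5 ± 5.63 in the SCNT TE. Its SD at morula was above its mean. Of the helicase genes Eif4a1 was above Eif4a2 up to E2C and below it at L2C. Eif4a1 averaged 241 ± 30.4 TPM in CCs, 266 ± 56.5 at 6 hpa, 222 ± 38.4 at 14 hpa, 207 ± 14.9 at E2C and 63.8 ± 22.2 at L2C. It averaged 123 ± 9.52 TPM at 4C, 259 ± 46.3 at 8C, 462 ± 381 at morula, 293 ± 85.7 in the SCNT ICM and 312 ± 97.5 in the SCNT TE. Its low point was L2C. Eif4a2 averaged 141 ± 10.0 TPM in CCs, 196 ± 44.2 at 6 hpa, 109 ± 23.9 at 14 hpa, 75.1 ± 28.7 at E2C and 125 ± 44.6 at L2C. It averaged 218 ± 66.6 TPM at 4C, 265 ± 79.3 at 8C, 370.3 ± 119 at morula, 303 ± 104 in the SCNT ICM and 248 ± 34.6 in the SCNT TE. The share of Eif4a2 in the pair was 25.9% at E2C and 65.9% at L2C. The fall of Eif4a1 at L2C was called, at -1.74 ± 0.30 (SE, limma adjusted p = 4.20e-06), and Eif4a2 was at 0.78 ± 0.26 (SE, limma adjusted p = 0.0135), under the 2-fold threshold. The tables list small RNA genes (Snora81, Snord2) and Rfc4 within or across Eif4a2, and no strand was stated. The stalling-relief factor eIF5A is encoded by 2 genes. Eif5a averaged 656 ± 297 TPM in CCs, 231 ± 109 at 6 hpa, 168 ± 135 at 14 hpa, 510.3 ± 253 at E2C and 357 ± 315 at L2C. It averaged 596 ± 557 TPM at 4C, 3006 ± 1169.5 at 8C, 5352 ± 1293 at morula, 3809 ± 495 in the SCNT ICM and 3556 ± 724 in the SCNT TE, and at 4C it was at 133 to 326 TPM in replicates 1 to 3 and 1043 to 1335 TPM in replicates 4 to 6. Eif5a2 was seen around genome activation, with averages of 0.661 ± 0.749 TPM in CCs, 0.362 ± 0.356 at 6 hpa, 0.500 ± 0.286 at 14 hpa, 2.91 ± 2.64 at E2C and 13.9 ± 6.20 at L2C. It averaged 8.78 ± 7.18 TPM at 4C, 2.68 ± 1.85 at 8C, 1.09 ± 1.19 at morula, 0.0417 ± 0.0709 in the SCNT ICM and 0 ± 0 in the SCNT TE. At E2C it was at 4.46 to 6.45 TPM in replicates 1 to 3 and 0.346 to 0.793 TPM in replicates 4 to 6. In fertilized blastocysts, in the order given above, Eif5a averaged 4067, 4454, 4921, 4259, 5620.4 and 5306 TPM, Eif5a2 0, 1.03, 0.0670, 0.450, 0.934 and 0.908, Eif4a1 469.9, 327, 464, 467, 373 and 369, Eif2s1 397, 406, 621, 453, 558 and 620.4, Eif2s2 2483, 3194, 3296, 2085, 2628 and 3955 and Eif4enif1 31.0, 8.20, 13.9, 24.1, 13.9 and 14.0.

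**Figure D2:**
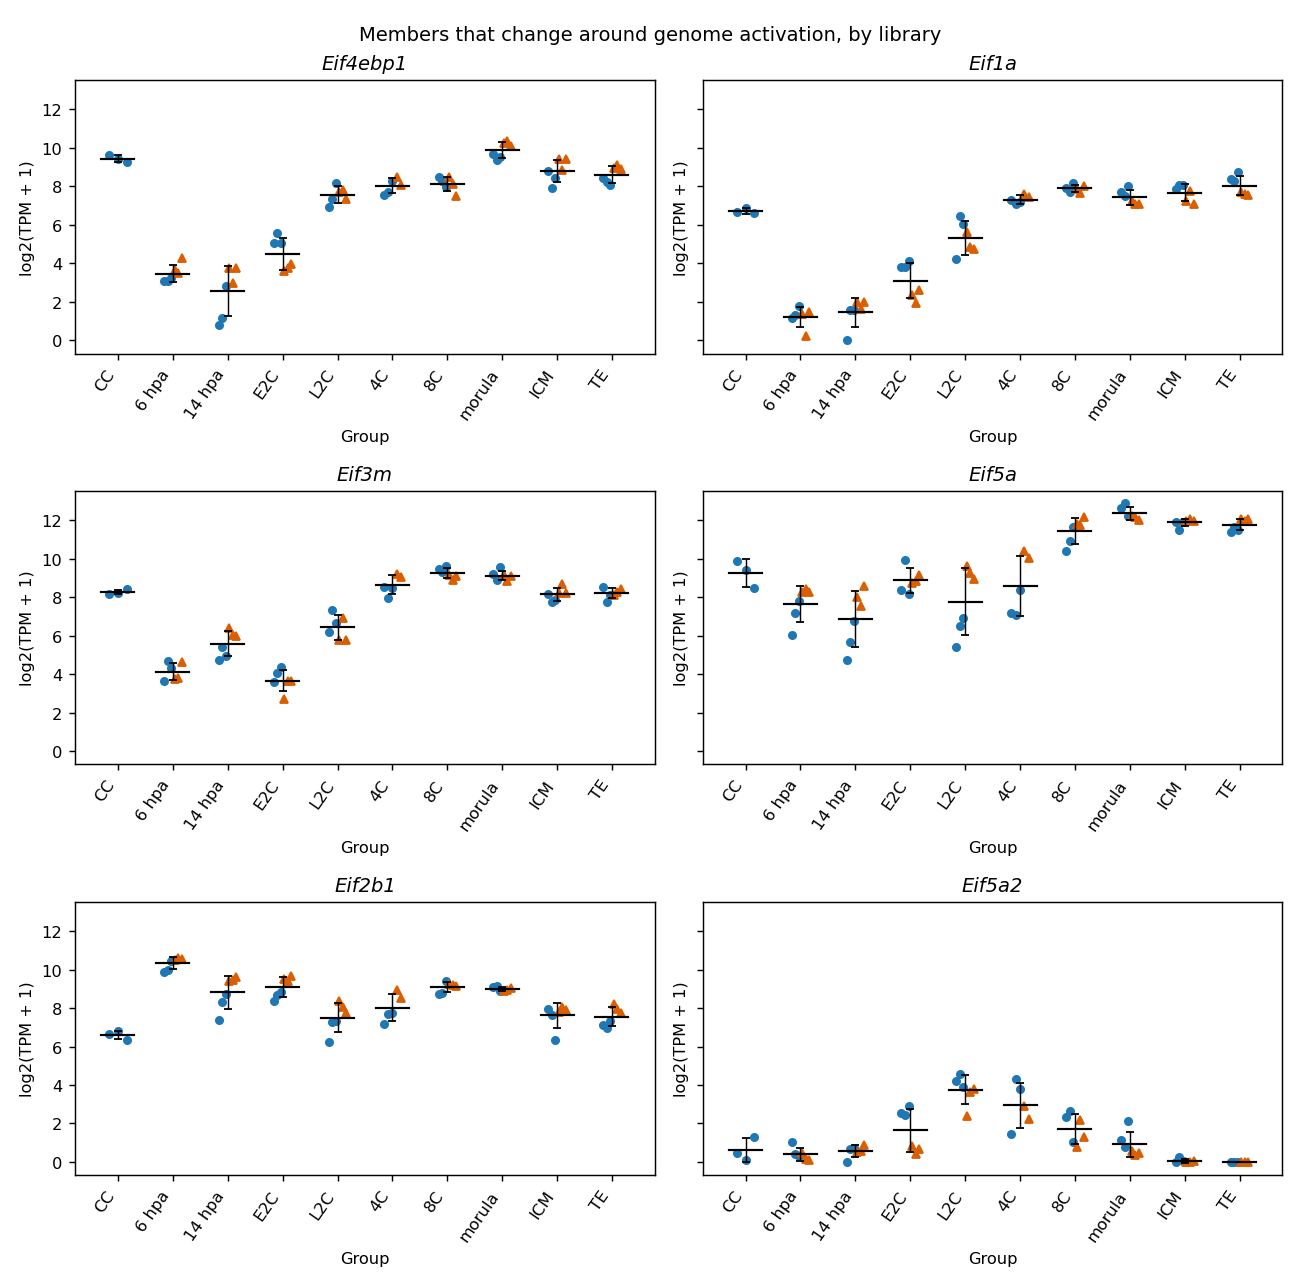
log2(TPM + 1) of 6 members (vertical axis) in CCs and SCNT groups (horizontal axis), with symbols, mean and SD as for the eIF4E forms. Eif4ebp1 and Eif1a rise through E2C and L2C, Eif3m dips at E2C, Eif2b1 is highest at 6 hpa, and Eif5a2 averages 13.9 TPM at L2C.

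The first comparison asked how the reconstructed embryo at 6 hpa differed from the donor cell. Against CCs 8 members were higher and 29 lower at 6 hpa, and over all genes tested the shares called were 25.8% higher and 35.6% lower. The median log2 change was -1.19 over the 54 members tested and -0.28 over all genes. The higher members were Eif4e3 (6.19), Eif4e1b, Eif2b1 (3.72), Eif4enif1 (2.37), Eif5b (2.26), Eif2ak4 (1.38), Eif2ak1 (1.26) and Eif4g1 (1.22, on the log2 scale). The lower ones with the largest changes were Eif4ebp1 (-5.96), Eif3g (-5.78), Eif1a (-5.51), Eif3l (-5.48), Eif3f (-5.19), Eif4h (-5.16), Eif3m (-4.14), Eif4e2 (-3.89), Eif3h (-3.88), Eif1ax (-3.04), Eif2b5 (-3.02) and Eif4ebp3 (-2.95). None of the 37 overlapped between CCs and 6 hpa, as for 97.8% of all genes called. Of the 48 other genes of the pathway (poly(A) binding, mTOR, stress response, helpers, elongation and termination), 11 were higher and 23 lower, led by Eef1g (-7.05), Eef1a1 (-7.00), Pabpc1 (-6.35) and Eef2 (-5.48). Eif4g1 was called in only 1 of the 9 fits that left out 1 library each. The 3 CC libraries shared one estimate of the spread with the 53 SCNT libraries.

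Within the 1-cell stage, from 6 to 14 hpa, 9 members rose and 4 fell, and over all genes tested the shares called were 6.14% higher and 4.94% lower. The median log2 change was 0.23 over the 53 members tested and 0.01 over all genes. The risers were Eif1ax (2.02), Eif4e1b (1.89), Eif4h (1.64), Eif3h (1.60), Eif1b (1.57), Eif3m (1.45), Eif4e (1.36), Eif3g (1.21) and Eif2s3x (1.10). Eif3c (-1.78), Eif2b1 (-1.51), the subunit joining factor Eif5b (-1.31) and Eif3i (-1.05) fell. Of the 5 eIF1 and eIF1A genes 2 rose and 0 fell, and of the 4 cap-binding forms 2 rose and 0 fell. In the pathway 7 rose and 2 fell, led by Paip2 (2.71), Eef1a1 (2.59), Ddit3 (2.39) and Eef1e1 (2.37). The split differed between the replicate sets, with 3 members higher and 8 lower in replicates 1 to 3 alone and 16 higher and 2 lower in replicates 4 to 6 alone. Within replicates 1 to 3 alone Eif4h, Eif3h, Eif1b, Eif3m, Eif3g and Eif2s3x were not called, and within replicates 4 to 6 Eif3c and Eif3i were not. Rescaling TPM over annotated genes moved the median of all genes by 0.15 and took the higher share of all calls from 55.4% to 67.1%, with 13 members higher and 3 lower.

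Few members moved from 14 hpa to E2C, the first cleavage. Eif5a (1.99), Eif4ebp1 (1.94) and Eif1a (1.65) rose and 5 fell, and over all genes tested the shares called were 2.78% higher and 3.05% lower. The median change on the log2 scale was 0.03 over the 53 members tested and 0.12 over all genes. Those that fell were Eif2b3 (-2.37), Eif3m (-1.92), Eif3e (-1.65), Eif2b4 (-1.51) and Eif2s2 (-1.18). The libraries of the 3 risers overlapped. In the pathway 3 rose and 2 fell, led by Gspt2 (-3.05), Pabpn1l (-2.44), Impact (1.89) and Mcts2 (1.72). The 3 risers were called in replicates 1 to 3 alone and not in replicates 4 to 6 alone. In all, replicates 1 to 3 gave 8 members higher and 3 lower, and replicates 4 to 6 gave 0 and 6. Of those that fell, Eif3e and Eif2b4 were not called in replicates 1 to 3 alone and Eif2s2 not in replicates 4 to 6 alone. At E2C Eif4ebp1 was at 31.9 to 46.2 TPM in replicates 1 to 3 and 11.2 to 14.5 TPM in replicates 4 to 6.

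From E2C to L2C, when genome activation takes place, 21 members rose and 8 fell, and over all genes tested the shares called were 23.7% higher and 11.2% lower. The median log2 change was 0.78 over the 53 members tested and 0.26 over all genes. The largest rises were Eif4ebp1 (3.07), Eif3c (2.86), Eif3m (2.78), Eif2b5 (2.59), Eif3a (2.41), Eif1a (2.22), Eif3g (2.16), Eif5a2 (2.12), Eif2ak3 (2.10), Eif2a (1.85), Eif3f (1.84) and Eif2b4 (1.82). Of the eIF3 subunits 8 rose and 0 fell. The 8 that fell were Eif4e1b (-2.48), Eif1b (-2.10), Eif4a1 (-1.74), Eif4e3 (-1.67), Eif2b1 (-1.58), Eif2ak4 (-1.28), Eif4enif1 (-1.09) and Eif4e (-1.05). Of the 4 cap-binding forms 3 fell and Eif4e2 rose (1.57), and of the 4 repressors and transporter Eif4enif1 fell and Eif4ebp1 rose. In the pathway 14 rose and 3 fell, led by Mcts2 (3.35), Pabpc1 (3.20), Impact (3.19) and Dhps (2.77). Pabpc1 is the main poly(A) binding protein. The higher share of all calls was 67.9%, 79.0% after rescaling over annotated genes and 48.1% after quantile normalization, with median shifts of 0.33 and -0.35. The members then split 29 to 6 and 19 to 8. Of the members named, Eif3f and Eif4enif1 were not called in replicates 1 to 3 alone, nor Eif4e and Eif4enif1 in replicates 4 to 6 alone.

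From L2C to 4C 19 members rose and 4 fell, and over all genes tested the shares called were 11.8% higher and 26.6% lower. The median change on the log2 scale was 0.82 over the 53 members tested and -0.33 over all genes. The largest rises were Eif2b3 (2.81), Eif3d (2.45), Eif3g (2.42), Eif3m (2.20), Eif3l (2.17), Eif1ad (2.0), Eif1a (1.99), Eif2s2 (1.87), Eif3b (1.66), Eif4e2 (1.65), Eif4a3 (1.61) and Eif3c (1.48). Eif4e3 (-3.25), Eif4e1b (-3.07), Eif4enif1 (-1.12) and the alternative initiator tRNA factor Eif2d (-1.08) fell. Of the eIF3 subunits 9 rose. The number of genes that fell was larger than the number that rose over all genes, the reverse of the split among members. In the pathway 11 rose and 6 fell, led by Paip1 (-4.84), Eef1g (3.26), Pdcd4 (-2.61) and Mcts1 (2.35). Quantile normalization took the higher share of all calls from 30.8% to 51.8% with a median shift of 0.48, and gave 18 members higher and 4 lower. Of the members named, Eif3b, Eif3c, Eif4e2 and Eif4enif1 were not called in replicates 1 to 3 alone and Eif2d not in replicates 4 to 6 alone. Eif4enif1 was called in 5 of 10 other settings and in 3 of the 11 fits that left out 1 library each. Eif2d was also not called once a trend on transcript length was removed.

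From 4C to 8C 17 members rose and 3 fell, and over all genes tested the shares called were 11.5% higher and 8.23% lower. The median log2 change was 0.71 over the 53 members tested and 0.04 over all genes. The largest rises were Eif5a (2.84), Eif2b2 (2.25), Eif2b3 (2.17), Eif6 (2.15), Eif3l (1.92), Eif2b4 (1.87), Eif3d (1.70), Eif2s2 (1.60), Eif3g (1.50), Eif2d (1.31), Eif3e (1.23) and Eif2ak1 (1.19), and all 5 subunits of eIF2B rose. Eif4e3 (-2.86), Eif2ak3 (-1.43) and Eif5a2 (-1.23) fell. Eif2ak3, Eif2b1, Eif2b3, Eif2b4, Eif2d, Eif3l, Eif5a2, Eif6 and Eif2ak1 had overlapping libraries. In the pathway 9 rose and 5 fell, led by Ddit3 (-3.34), Rps6kb2 (2.89), Dohh (2.20) and Impact (-2.10). With TPM rescaled over annotated genes 9 members were higher and 5 lower, the median of all genes moved by -0.40, 12 members changed sign, and the higher share of all calls went from 58.4% to 31.8%. Quantile normalization gave 8 and 4, and replicates 4 to 6 alone gave 12 calls, without Eif2b2, Eif2s2, Eif3g, Eif3e, Eif2ak1 and Eif2ak3. Eif2b4, Eif3d, Eif2ak1 and Eif5a2 were not called in replicates 1 to 3 alone.

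Over the whole span from 6 hpa to 8C 36 members were higher and 6 lower, and over all genes tested the shares called were 36.5% higher and 31.7% lower. The median change on the log2 scale was 2.59 over the 53 members tested and 0.25 over all genes. The largest rises were Eif3g (7.10), Eif1a (6.68), Eif3l (6.20), Eif3f (5.55), Eif3m (5.13), Eif2b5 (5.04), Eif3d (4.68), Eif1ad (4.67), Eif4ebp1 (4.67), Eif3h (4.64), Eif4e2 (4.57) and Eif4h (4.46). Beside Eif4e1b, which was at 0 in every 8C library, Eif4e3 (-8.70), Eif4enif1 (-3.06), Eif2ak4 (-2.65), Eif2b1 (-1.24) and Eif4g3 (-1.01) fell. Of the 42 called members Eif5a2 was the one whose libraries overlapped, and 86.8% of all genes called did not overlap. Eif4g3 was not called in replicates 1 to 3 alone. In the pathway 25 rose and 10 fell, led by Eef1g (7.32), Paip1 (-7.09), Eef1a1 (5.62) and Dhps (5.61). Paip1 is a partner of the poly(A) binding protein and Eef1a1 and Eef1g are elongation factors. Shorter transcripts rose more over all genes in this comparison, with medians of 1.05 for genes whose longest transcript is under 2000 bases, 0.33 from 2000 to under 4000 bases and -0.54 from 4000 bases. With this trend removed the counts of members were the same, 36 and 6, although Eif4g3 was not called.

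From 8C to morula 4 of 53 members were called, and against morula 14 were called in the ICM and 11 in the TE, all of them lower. At morula Eif4ebp1 (1.75) and Eif2d (1.54) rose and Eif5b (-1.51) and Eif4e (-1.02) fell, and over all genes tested the shares called were 8.74% higher and 3.48% lower. The median change on the log2 scale was 0.03 over the 53 members tested and 0.20 over all genes. The higher share of all calls was 71.5%, and 48.2% after quantile normalization with a median shift of -0.31. In the ICM 0 members were higher and 14 lower than at morula, and over all genes tested the shares called were 8.96% higher and 15.0% lower. The 12 largest falls were Eif4e (-2.02), Eif2b2 (-1.68), Eif3h (-1.48), Eif4a3 (-1.43), Eif3d (-1.41), Eif2b1 (-1.38), Eif5 (-1.37), Eif3i (-1.30), Eif3f (-1.30), Eif2ak3 (-1.20), Eif3b (-1.18) and Eif4g3 (-1.13). In the TE 0 were higher and 11 lower, and over all genes tested the shares called were 11.0% higher and 10.8% lower. These 11 were Eif2b2 (-1.82), Eif5 (-1.82), Eif4e (-1.75), Eif2b1 (-1.46), Eif6 (-1.43), Eif4a3 (-1.34), Eif2b3 (-1.33), Eif4ebp1 (-1.27), Eif3d (-1.22), Eif3i (-1.08) and Eif3h (-1.06). The morula libraries are shared by both comparisons. For the ICM the median log2 change was -0.60 over the members and -0.16 over all genes. For the TE the medians were -0.47 and -0.03. At an unadjusted p under 0.05, 25 members in the ICM and 21 in the TE differed from morula in either direction (47.2% and 39.6%), against 36.5% and 34.1% of all genes. After quantile normalization the higher share of all calls in the ICM went from 37.4% to 47.7%, and 1 member was then higher. Replicates 1 to 3 alone gave 0 members higher and 20 lower in the ICM. Replicates 4 to 6 alone gave 7 calls there, 1 higher and 6 lower, without Eif2b2, Eif3h, Eif4a3, Eif3d, Eif3i, Eif3f, Eif2ak3 and Eif4g3. Leaving out ICM replicate 2 gave 9 calls. ICM replicates 1 to 3 had 6771, 6177 and 6228 genes at 1 TPM or more. ICM replicates 4 to 6 had 9011, 10032 and 9845, and the morula libraries 9165 to 10509. The part of this difference in the falls was not tested. Replicates 1 to 3 alone did not call Eif5b and Eif4e at morula, Eif3b in the ICM, or Eif2b2, Eif2b3, Eif3d and Eif3h in the TE, and replicates 4 to 6 did not call Eif3d and Eif3i in the TE. In the pathway Larp4 (-1.62) and Ncbp2 (-1.26) fell and 0 rose at morula, and 9 of 47 had an unadjusted p under 0.05 by limma. The share of all genes at that level was 26.4%. The counts were 2 higher and 9 lower in the ICM, led by Pdcd4 (3.51), Paip2b (-2.71), Larp4 (-2.26) and Impact (-2.03), and 3 and 4 in the TE, led by Pdcd4 (3.55), Larp4 (-2.79), Paip1 (1.56) and Pabpc4 (-1.52).

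Between the 2 lineages of the SCNT blastocyst 1 member was higher and 2 lower in the ICM, and over all genes tested the shares called were 1.47% higher and 3.87% lower. Eif2d averaged 222 TPM in the ICM and 113 in the TE, with a log2 change of 1.15 ± 0.33 (SE, limma adjusted p = 0.0289). Eif2ak3 was at -1.23 and Eif4g3 at -1.02, and the libraries of all 3 overlapped. In the pathway Cpeb1 (-1.74) and Paip2b (-1.71) were lower and 0 were higher, with 7 of 47 at an unadjusted p under 0.05 by limma. The share of all genes at that level was 18.2%. The SCNT ICM libraries also carried TE markers, whose sum ran from 1932 to 8403 TPM there and from 5129 to 16075 TPM in the TE, and their part in these values was not tested. The 5 ICM markers summed to 211 to 374 TPM in the SCNT ICM and 54.8 to 222 TPM in the SCNT TE. Quantile normalization left Eif2d alone, moved the higher share of all calls from 27.6% to 46.5%, and replicates 4 to 6 alone gave 0 calls. Leaving out ICM replicate 2, ICM replicate 3 or TE replicate 2 gave 1 call, and leaving out TE replicate 3 gave 0.

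In the fertilized blastocysts the targeted genes were read first. Mcrs1 was at 253 and 310.1 TPM in ICM with control MO and 86.8 and 73.4 TPM with Mcrs1 MO. In the TE it was at 219 and 294 TPM with control MO and 41.1 and 45.5 TPM with Mcrs1 MO. The log2 change was -1.80 ± 0.21 (SE, limma adjusted p = 0.00333) in the ICM and -2.53 ± 0.21 (SE, limma adjusted p = 8.68e-04) in the TE. The RNA of Max stood at 38.0 and 8.42 TPM in ICM with control MO and 6.82 and 0.443 TPM with Max MO, and in the TE at 34.5 and 28.5 TPM with control MO and 16.3 and 8.68 TPM with Max MO. Its log2 change was -2.51 ± 0.80 (SE, limma adjusted p = 0.0397) in the ICM and -1.32 ± 0.80 (SE, limma adjusted p = 0.390) in the TE. A morpholino acts on translation or splicing, and the level of its target's RNA is no measure of the protein. ICM with control MO replicate 1 stood apart. The 6 TE markers summed to 16011 TPM in it and to 354 TPM in replicate 2, against 18381 to 20547 TPM in TE with control MO, 2718 to 5828 TPM in ICM with Max MO and 8048 to 11557 TPM in ICM with Mcrs1 MO. Its Krt18 was at 10274 TPM and that of replicate 2 at 108. The 5 ICM markers summed to 752 to 880 TPM in ICM with control MO, both replicates included, and to 204 to 244 TPM in TE with control MO. They summed to 559 to 580 TPM in ICM with Max MO and 260 to 564 TPM in ICM with Mcrs1 MO. The 4 primitive endoderm markers summed to 34.9 to 35.8 TPM in ICM with control MO, 76.5 to 264 TPM with Max MO and 80.0 to 86.2 TPM with Mcrs1 MO. The part of these cells in the ICM results was not tested. Within a lineage the Max MO and Mcrs1 MO comparisons share the same 2 control libraries.

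Because MAX acts through CACGTG, the promoter windows of RefSeq (GRCm38.p6, 250 bases before to 50 after the gene start) were searched for these letters, which read the same on both strands. Of the 42 members with a window 10 held the motif (23.8%), against 2187 of 27025 symbols (8.09%). They were Eif1b, Eif3a, Eif3f, Eif3k, Eif4a1, Eif4e, Eif4g1, Eif4h, Eif5a and Eif5a2. A match is a description of the letters and not a site of binding. A symbol counted if any of its windows held the motif, and by window the shares were 21.8% and 7.15%. The 27025 symbols were not limited to the genes tested here or matched for GC content, so the difference is no trait of the members. The windows of 4 members that were lower with Max MO in the ICM are shown, 2 with the motif and 2 without, with the motif in capitals: Eif4g1 (chr16:20672477-20672776, plus strand), Eif3a (chr19:60790644-60790943, minus strand), Eif4a2 (chr16:23107218-23107517, plus strand) and Eif2s3x (chrX:94212602-94212901, minus strand).
Eif4g1: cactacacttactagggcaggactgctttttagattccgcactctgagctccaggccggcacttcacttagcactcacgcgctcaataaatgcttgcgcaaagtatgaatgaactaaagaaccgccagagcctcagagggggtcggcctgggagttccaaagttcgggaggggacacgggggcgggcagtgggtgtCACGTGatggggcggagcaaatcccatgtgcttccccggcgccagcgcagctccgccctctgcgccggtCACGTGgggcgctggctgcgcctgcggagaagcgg
Eif3a: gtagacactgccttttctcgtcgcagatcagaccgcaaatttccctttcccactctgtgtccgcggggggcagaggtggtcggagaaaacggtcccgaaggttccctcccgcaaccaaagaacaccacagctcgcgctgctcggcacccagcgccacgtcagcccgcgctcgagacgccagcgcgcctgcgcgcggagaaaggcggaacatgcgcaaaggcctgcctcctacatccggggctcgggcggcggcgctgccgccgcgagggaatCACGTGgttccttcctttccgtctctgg
Eif4a2: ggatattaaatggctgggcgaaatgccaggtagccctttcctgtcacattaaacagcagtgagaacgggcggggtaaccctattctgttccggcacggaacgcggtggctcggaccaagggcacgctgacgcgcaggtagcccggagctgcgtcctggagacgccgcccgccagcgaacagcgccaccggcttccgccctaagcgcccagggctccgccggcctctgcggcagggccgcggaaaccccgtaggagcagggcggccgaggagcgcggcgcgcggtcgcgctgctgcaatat
Eif2s3x: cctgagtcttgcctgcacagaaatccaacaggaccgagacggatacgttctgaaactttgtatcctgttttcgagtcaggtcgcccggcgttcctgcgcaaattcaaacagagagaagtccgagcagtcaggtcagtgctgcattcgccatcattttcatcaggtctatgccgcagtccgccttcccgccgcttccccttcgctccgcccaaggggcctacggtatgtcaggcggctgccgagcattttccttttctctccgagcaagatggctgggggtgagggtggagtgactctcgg

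The motif lies at -54 and 15 in Eif4g1 and at 22 in Eif3a, counted from the gene start. The Eif4a2 and Eif2s3x windows hold none. Of the 12 members called with Max MO in the ICM that have a window 3 hold the motif (Eif4g1, Eif3a and Eif1b), or 25%, near the share of all members.

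With Max MO the ICM had less RNA of the scaffold eIF4G1, its relative eIF4G2, the helicase eIF4A2 and the X-linked gamma subunit of eIF2. Eif4g1 was at 109 and 174 TPM in ICM with control MO and 20.8 and 19.3 TPM with Max MO. Eif4g2 (chr7:111067985-111083030, mm10, minus strand), also known as DAP5, which starts translation without eIF4E, went from 425 and 416 to 96.9 and 78.5 TPM. Eif4a2 went from 1144 and 836 to 251 and 282 TPM. Eif2s3x went from 169 and 136 to 55.6 and 37.5 TPM. In each of these the 2 control libraries lay above the 2 Max MO libraries, and the libraries of all 2659 genes called here did not overlap. The log2 changes were -2.72 ± 0.30 (SE, limma adjusted p = 5.93e-04) for Eif4g1, -2.26 ± 0.21 (SE, limma adjusted p = 3.79e-04) for Eif4g2, -1.87 ± 0.25 (SE, limma adjusted p = 0.00102) for Eif4a2 and -1.71 ± 0.26 (SE, limma adjusted p = 0.00159) for Eif2s3x. In all 4 members were higher and 10 lower, and over all genes tested the shares called were 8.65% higher and 15.1% lower. The median log2 change was -0.09 over the 50 members tested and -0.21 over all genes. The other lower ones were Eif2ak4 (-2.91), Eif4enif1 (-1.79), the largest eIF3 subunit Eif3a (-1.70), the eIF4A cofactor Eif4b (-1.42), Eif2ak1 (-1.14) and Eif1a (-1.12). Eif3g (1.31), Eif2b2 (1.25), Eif4e2 (1.14) and Eif1b (1.01) were higher. Of the pathway 0 were higher and 14 lower by limma, led by Tsc2 (-3.25), Gigyf1 (-2.94), Gcn1l1 (-2.79) and Impact (-2.71). There 23 of 44 had an unadjusted p under 0.05, against 40.4% of all genes. Gcn1l1 activates the kinase encoded by Eif2ak4, and Tsc2 restrains mTOR.

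Left out 1 at a time, the 4 libraries gave between 10 and 14 calls, and Eif4g1, Eif4g2, Eif4a2, Eif2s3x, Eif3a, Eif4b, Eif4enif1 and Eif4e2 were called in all 4 fits. Fitting the ICM alone gave 9 calls, 2 higher and 7 lower. Without control replicate 1, which carries the TE markers, Eif3g, Eif1b, Eif2ak4 and Eif1a were not called. Quantile normalization moved the higher share of all calls from 36.5% to 52.6%, with a median shift of 0.25.

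In the TE Eif4a2, Eif4g1, Eif2s3x and Eif4g2 were lower with Max MO, and 0 members were higher. Over all genes tested the shares called were 1.04% higher and 1.45% lower. Eif4a2 was at 1083 and 868 TPM with control MO and 221 and 268 TPM with Max MO, and Eif4g1 was at 94.1 and 89.1 TPM against 25.9 and 27.7 TPM. Eif4g2 was at 537 and 394 TPM against 219 and 208 TPM, and Eif2s3x at 241 and 173 TPM against 81.3 and 78.5 TPM. No Max MO library reached the level of a control library. The libraries did not overlap for 57.5% of all genes tested and for all 280 genes called here. The log2 changes were -1.99 ± 0.25 (SE, limma adjusted p = 0.0149) for Eif4a2, -1.74 ± 0.30 (SE, limma adjusted p = 0.0239) for Eif4g1, -1.34 ± 0.26 (SE, limma adjusted p = 0.0307) for Eif2s3x and -1.11 ± 0.21 (SE, limma adjusted p = 0.0317) for Eif4g2. All 4 calls were lost when any 1 of the 4 libraries was left out, which leaves an arm with 1 library that is assumed to vary like the other groups. The medians were -0.08 over members and -0.19 over all genes. Limma gave 14 members an unadjusted p under 0.05 (28.0%), against 20.4% of all genes. In the pathway Gcn1l1 (-1.88) and Eef1a1 (-1.31) were lower and 0 higher, with 14 of 44 at an unadjusted p under 0.05. The higher share of all calls went from 41.8% to 52.6% after quantile normalization, with a median shift of 0.28.

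With Mcrs1 MO 2 scaffolds and the helicase eIF4A2 were lower. In the ICM Eif4g1 was at 25.8 and 24.7 TPM, Eif4g2 at 216 and 193 TPM and Eif4a2 at 320.2 and 509 TPM, against the control values above. The log2 changes were -2.40 ± 0.30 (SE, limma adjusted p = 0.00366), -1.04 ± 0.21 (SE, limma adjusted p = 0.0154) and -1.27 ± 0.25 (SE, limma adjusted p = 0.0125). The 2 listings of Eif3j1 and Eif3j2 were higher (1.05), and so 2 members were higher and 3 lower, and over all genes tested the shares called were 4.88% higher and 5.21% lower. Eif3j1 and Eif3j2 were not called under either other scaling, and fitting each lineage alone gave 0 calls. In the TE Eif4g1 was at 18.2 and 13.2 TPM, Eif4g2 at 168 and 130.4, Eif4a2 at 392 and 451 and Eif2s3x at 104 and 90.0 TPM. The log2 changes were -2.49 ± 0.30 (SE, limma adjusted p = 0.00405), -1.63 ± 0.21 (SE, limma adjusted p = 0.00513), -1.20 ± 0.25 (SE, limma adjusted p = 0.0224) and -1.07 ± 0.26 (SE, limma adjusted p = 0.0360). These 4 were lower and 0 were higher, and over all genes tested the shares called were 1.77% higher and 3.31% lower. With the trend on transcript length removed 4 were higher and 2 lower. Eif2s3x in the ICM was at 80.4 and 77.1 TPM, with a log2 change of -0.94 ± 0.26 (SE, limma adjusted p = 0.0402), under the 2-fold threshold. The medians over members and over all genes were 0.07 and -0.05 in the ICM and 0.05 and -0.24 in the TE. In the TE 25 members had an unadjusted p under 0.05 by limma (50.0%), against 24.9% of all genes. In the pathway 0 were higher in either lineage by limma. In the ICM 6 were lower, led by Gigyf1 (-2.88), Tsc2 (-2.37), Gcn1l1 (-2.31) and Gigyf2 (-1.98), and in the TE 7, led by Gigyf2 (-2.24), Larp4 (-1.96), Tsc2 (-1.91) and Pdcd4 (-1.90). At an unadjusted p under 0.05 there were 17 and 24 of 44, against 29.3% of all genes in the ICM and 24.9% in the TE. Left out 1 at a time, the libraries gave between 1 and 7 calls in the ICM and between 0 and 2 in the TE, and Eif4g1 was called in all 4 of these fits in the ICM. Without ICM control MO replicate 1 there were 7 calls in the ICM, with Eif3e (1.09) higher and Eif4enif1 (-1.34) lower in addition to the 5 above. Without Mcrs1 MO replicate 1 Eif4g1 was the 1 call there, and without replicate 2 Eif4g1 and Eif4a2 were the 2. In the TE leaving out control MO replicate 1 gave 1 call, control MO replicate 2 or Mcrs1 MO replicate 1 gave 2, and Mcrs1 MO replicate 2 gave 0. Quantile normalization moved the higher share of all calls in the TE from 34.9% to 52.6%, with a median shift of 0.31.

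**Figure D3:**
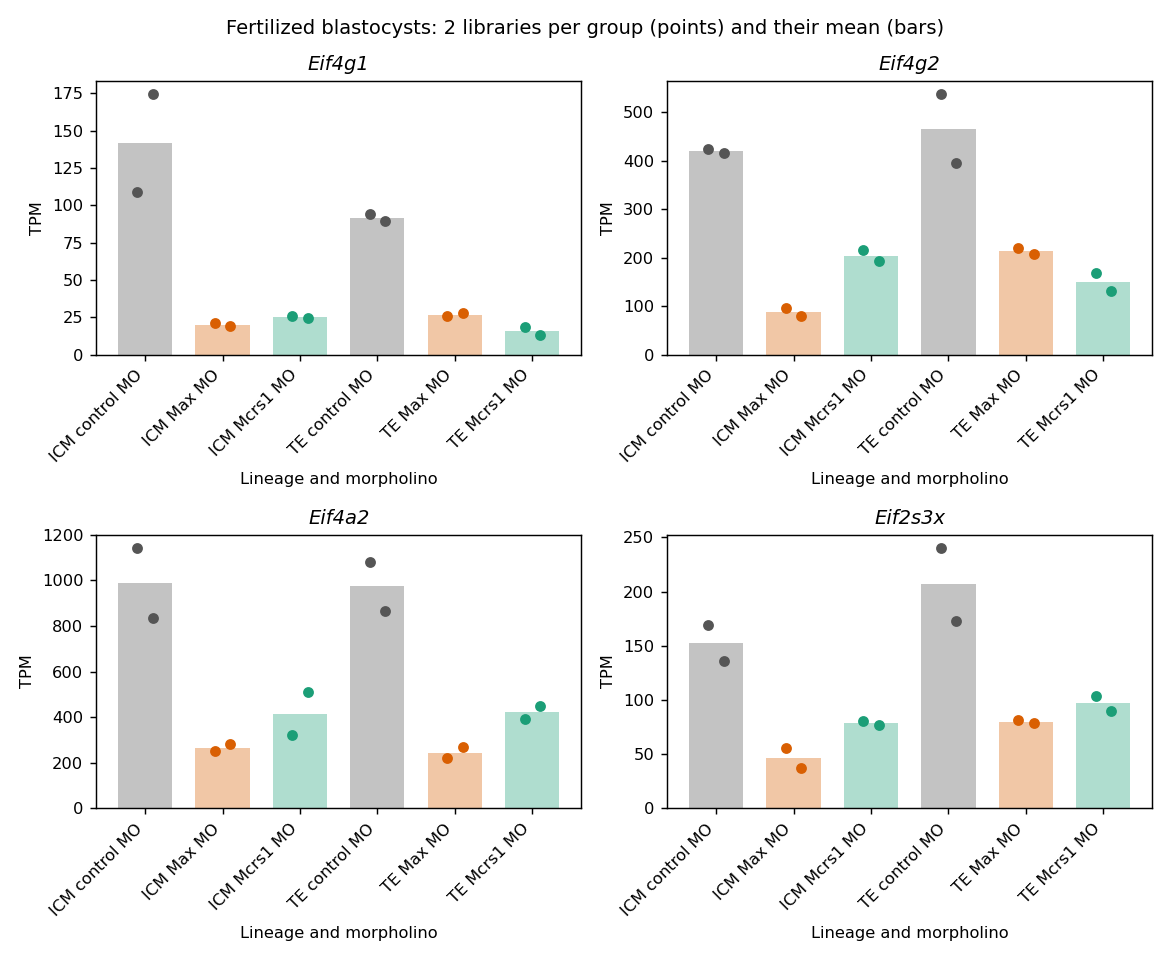
TPM of 4 members in the fertilized blastocysts (vertical axis), by lineage and morpholino (horizontal axis), 1 point per library and a bar for the mean of the 2. Eif4g1, Eif4g2, Eif4a2 and Eif2s3x lie lower with Max MO than with control MO in both lineages.

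Whether the response differed between the lineages was tested by an interaction term. Limma called 0 members higher and 0 lower for Max MO and likewise for Mcrs1 MO, and the share of all genes called was 0% and 0% for Max MO and 0% and 0% for Mcrs1 MO. At an unadjusted p under 0.05 there were 8 members of 50 for Max MO and 3 for Mcrs1 MO, and 1473 and 972 of 11219 genes. The smallest adjusted p of a member was 0.146 for Max MO and 0.485 for Mcrs1 MO. Leaving out ICM control MO replicate 1 gave 2 calls for Max MO, Eif3a (-1.73, ICM minus TE) and Eif3b (1.51), and leaving out replicate 2 gave Eif1a (-1.55) and Eif3a (-1.41). These 3 members were named after their values were seen.

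Transcript length moved with the morpholino response over all genes. With Max MO in the ICM the median log2 change was 0.64 for genes whose longest transcript is under 2000 bases, -0.20 from 2000 to under 4000 bases and -0.91 from 4000 bases. In the TE the medians were 0.23, -0.16 and -0.56. With Mcrs1 MO they were 0.40, -0.01 and -0.46 in the ICM and 0.25, -0.21 and -0.71 in the TE. Of the 10 members that were lower in the ICM with Max MO the longest transcript had 7995 bases for Eif4g2, 5638 for Eif4g1, 5298 for Eif2ak4, 5125 for Eif3a, 4325 for Eif2ak1, 3854 for Eif4b, 3712 for Eif4enif1, 3647 for Eif2s3x, 2865 for Eif1a and 2708 for Eif4a2. Those that were higher had 1101 for Eif3g, 1035 for Eif1b, 1605 for Eif2b2 and 3473 for Eif4e2. With the trend on length removed, Eif4a2 was called in all 4 comparisons, at -1.74 and -1.86 for Max MO and -1.28 and -1.02 for Mcrs1 MO in ICM and TE. Eif4g1 was called in 3, at -1.79, -1.92 and -1.80, and not in TE with Max MO, at -1.19 (limma adjusted p = 0.0899). Eif4g2 (-1.12) and Eif2s3x (-1.23) were called with Max MO in the ICM alone. Eif3g, Eif2b2, Eif1b, Eif3a, Eif4b, Eif2ak1, Eif2ak4 and Eif1a were not called there. With Mcrs1 MO in the TE Eif3j1 (1.50), Eif2b3 (1.48), Eif4e (1.43) and Eif2s2 (1.41) were called higher once the trend was removed, and none of them before. Length was read from GENCODE vM21 transcripts after the responses were seen.

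**Figure D4:**
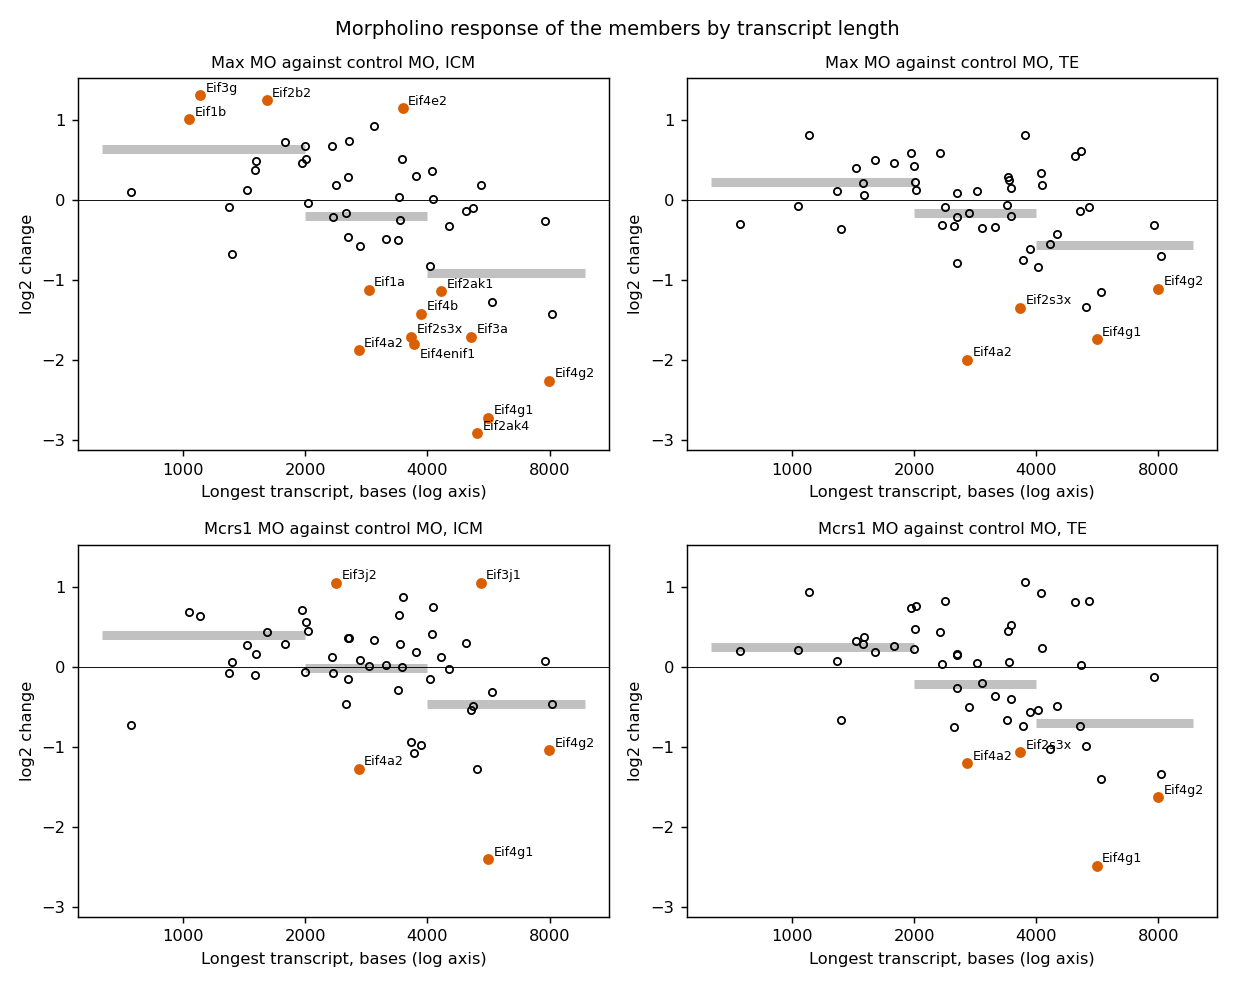
log2 change of each member against control MO (vertical axis) by the length of its longest transcript in bases (horizontal axis, log scale), 1 panel per morpholino and lineage. Filled orange points were called, open points were not, and gray bars are the medians of all genes in 3 length classes. In ICM with Max MO the bars step down from 0.64 to -0.91, and Eif4a2 lies below its class in all 4 panels.

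Eif2s3y, the Y-linked copy that the rule leaves out, was higher with both MOs. It was at 27.7 and 41.6 TPM in ICM with control MO, 127 and 95.8 with Max MO and 132 and 139.9 with Mcrs1 MO. In the TE it was at 38.5 and 47.4 TPM with control MO, 152 and 133 with Max MO and 106 and 122 with Mcrs1 MO. Xist, the RNA of the inactive X chromosome, was at 23.5 and 12.3 TPM in ICM with control MO, 2.03 and 1.78 with Max MO and 2.96 and 1.18 with Mcrs1 MO. In the TE it was at 46.5 and 21.0 TPM, 5.03 and 2.59 TPM and 6.54 and 3.71 TPM in the same order. The control libraries were thus above the others for Xist and below them for Eif2s3y. The Y-linked Ddx3y did not separate in this way, with 79.3 and 15.7 TPM in ICM with control MO, 23.1 and 21.1 with Max MO and 45.3 and 63.4 with Mcrs1 MO. In the TE it was at 59.0 and 43.0, 54.6 and 58.5, and 39.4 and 41.1 TPM in the same order. The Y-linked Kdm5d was lower with both MOs in the TE, at 2.22 and 2.69, 0.387 and 0, and 0.179 and 0 TPM. It overlapped in the ICM, and the Y-linked Uty overlapped in both lineages. The labels do not give the sex of the pooled embryos, and its part in the change of Eif2s3x was not tested.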

How the data were processed

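RNA of 68 libraries in 16 groups was measured by Smart-seq2. The authors trimmed reads with Cutadapt 1.16, aligned them to mm10 with HISAT2 and made gene tables with StringTie. The authors deposited, for each gene, TPM, FPKM and coverage. The deposited TPM column was handled as a score on the TPM scale, since the loci assembled in each library make up the fixed total of the scale and 24421 reference genes stand beside them. The deposited FPKM and the deposited coverage signal were used only to estimate aligned gigabases. The tables hold no counts, so no count test, counting interval or floor was used.

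The TPM of each symbol was summed over its listings, and log2(TPM + 1) was fitted with limma 3.58.1 in R 4.3.3 (lmFit, eBayes with a trend) on genes that averaged 1 TPM or more: 11867 genes in the SCNT fit, 12084 with CCs and 11219 in the morpholino fit. Adjusted p-values are Benjamini-Hochberg over all genes of a fit. Members under that level were Eif2ak2 in the SCNT fit and Eif2ak2, Eif4e1b, Eif4e3 and Eif5a2 in the morpholino fit. Members and lists were chosen with earlier results of these data known. In each comparison up to 12 called members per direction and at most 4 other pathway genes are named, by size of change, and 20 members have values in every group. Replicate numbers and groups came from the labels. One 4C library is numbered 5 in its label and otherwise in its table, and the label was used.

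The labels' replicate numbers were checked for pairing by the correlation of deviations of same-numbered libraries, and every pair was over 0.1 for 14 hpa against 6 hpa (mean 0.26) and ICM against TE (mean 0.19). The fits were repeated with 0.1 added in place of 1, with all genes above 0, an average of 5 TPM or more, quantile normalization, TPM rescaled to the annotated genes, the largest listing of a gene, a replicate block, replicates 1 to 3 or 4 to 6 alone, CCs and 6 hpa alone, each lineage alone and single libraries left out. The removal of a trend on transcript length (lowess, span 0.3) was chosen after seeing the data. The fits were also run on simulated data with planted changes. Its noise was independent between libraries, without replicate sets, a shift of scale or a trend on length. The simulation therefore cannot test for those. Promoter windows are from RefSeq (GRCm38.p6). Plots and tables used Python 3.11.15, pandas 2.3.3 and matplotlib 3.10.9.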

Additional observations from a re-analysis of the deposited data

Results flagged for a closer look

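Among 170 combinations of a member with values in every group and a group of 4 to 10 libraries, 16 held 1 library set apart from the others by Dixon's gap test at the 95% level, where chance gives about 1 in 20. These libraries gave the following values.

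Of the cap-binding genes, Eif4e2 was lowest in L2C replicate 1 at 9.47 TPM, with the others at 40.8 to 62.5, and in morula replicate 2 at 96.4 TPM, with the others at 129.9 to 152. Eif4e3 was highest in SCNT ICM replicate 4 at 5.47 TPM, with the others at 0.103 to 0.621, and in SCNT TE replicate 6 at 1.63 TPM, with the others at 0 to 0.245. The repressor genes Eif4ebp2 and Eif4ebp3 are low in the embryo. Eif4ebp2 was highest in SCNT ICM replicate 6 at 4.70 TPM, with the others at 0 to 0.266. Eif4ebp3 was listed at 0 in 14 hpa replicate 1, with the others at 1.19 to 1.92, and stood at 1.41 TPM in 4C replicate 5, with the others at 0 to 0.151.

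Of the scanning factor genes, Eif1 was lowest in SCNT TE replicate 3 at 288.7 TPM, with the others at 402 to 473, and Eif1a was listed at 0 in 14 hpa replicate 1, with the others at 1.97 to 2.97. Eif2s1 was lowest in that same 14 hpa library at 36.8 TPM, with the others at 84.2 to 115, and in L2C replicate 1 at 76.7 TPM, with the others at 148 to 210.2. The other eIF2 subunit gene with such a library was Eif2s3x, highest in 8C replicate 3 at 88.5 TPM, with the others at 60.5 to 68.7, and lowest in SCNT ICM replicate 2 at 26.2 TPM, with the others at 56.2 to 76.0. Eif5a was lowest in that SCNT ICM library too, at 2853 TPM, with the others at 3886 to 4312. The helicase gene Eif4a2 was lowest in E2C replicate 1 at 28.8 TPM, with the others at 66.6 to 109, and highest in 4C replicate 2 at 334 TPM, with the others at 177 to 212.

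Eif2s3y, which is in no comparison, averaged 111.3 TPM in ICM with Max MO, 136.1 in ICM with Mcrs1 MO, 142.8 in TE with Max MO and 114 in TE with Mcrs1 MO, each above both control libraries of its lineage.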

How the results depend on the processing

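Of 3306 values of single members under the alternatives, over 167 results, 3013 kept their direction and their side of the threshold. A further 293 kept their direction but not their call, and 0 turned. The 167 results are calls of the main fits, each at least a 2-fold change, so few could turn. Fits that left out 1 library gave 1697 of the values. Among all members tested, 12 changed sign in 8C against 4C with rescaling and 13 with quantile normalization. In 8C against 6 hpa 0 did with rescaling and 3 with quantile normalization. The count of members called moved by more than 1.5 times in these cases, of which the cause was not tested. For 8C against 4C it was 12 with quantile normalization and 12 in replicates 4 to 6 alone, in place of 20. For ICM against morula it was 7 in replicates 4 to 6 alone and 9 with the length trend removed, in place of 14. For ICM against TE it was 1 at an average of 5 TPM or more, 1 with quantile normalization and 0 in replicates 4 to 6 alone, in place of 3. For Max MO it was 9 in the ICM with each lineage alone and 9 with the length trend removed, in place of 14, and 1 in the TE with that trend removed, in place of 4. For Mcrs1 MO in the ICM it was 3 with all genes above 0 and 0 with each lineage alone, in place of 5.

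With 1 library left out at a time the count ran from 12 to 16 at 14 hpa, 6 to 9 at E2C, 25 to 30 at L2C, 19 to 25 at 4C, 15 to 23 at 8C, 3 to 4 at morula, 9 to 16 in the ICM and 8 to 12 in the TE. It ran from 0 to 3 for ICM against TE, 41 to 43 for 8C against 6 hpa and 33 to 37 for 6 hpa against CCs. For Max MO it ran from 10 to 14 in the ICM and 0 to 0 in the TE, and for Mcrs1 MO from 1 to 7 and 0 to 2. The interaction gave 0 to 2 for Max MO and 0 to 0 for Mcrs1 MO.

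With the replicate number as a block, the pairing gave 15 members called at 14 hpa, 31 at L2C, 25 at 4C, 15 in the ICM and 12 in the TE against morula, 36 against CCs, 3 for ICM against TE and 5 for Mcrs1 MO in the ICM. The 167 calls of members that the text names were all made with the block too, and the counts differ by other members. Only 14 hpa against 6 hpa and ICM against TE had a correlation over 0.1 in every same-numbered pair. The mean for E2C against 14 hpa was 0.20, above the 0.19 of ICM against TE. In each of these comparisons a library's own number was its best match in 2 of 6 cases. The labels do not say what same-numbered libraries share. No count of reads was given, so the depth behind a single value is unknown.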
